A study of Mus musculus with 4 samples.

Results

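A set of 10 genes of blood vessel growth and quiescence, 4 of them encoding secreted ligands or factors (Vegfa, Angpt2, Apln and Esm1) and 6 encoding receptors (Kdr, Flt1, Nrp1, Tek, Tie1 and Aplnr), were followed across the cell types of the mouse lung. They were chosen by name and make up 10 of the 32285 genes in the count tables. The rule names the genes and sets no measured value, but the set was chosen with earlier results of these data known. The cells came from lungs of wild-type (WT) male C57BL/6 mice, 6-7 weeks old, collected 48 h after an intratracheal injection that was followed by 0.4 mL of air in all groups. The LPS+RT group received 200 µg of E. coli lipopolysaccharide (LPS), an inflammatory bacterial cell wall component, and 1 Gy of X-rays to the thorax on the following day, 24 h before collection. The LPS group received the same injection without X-rays. The PBS+RT group received 100 µL of phosphate-buffered saline and the same X-rays, and the PBS group received saline alone. The dissociated lungs were enriched for mononuclear cells on a density gradient before 10x droplet sequencing of the 3′ ends of transcripts, so the cell shares below are shares after this step.

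Each group is 1 library. The number of mice in a library is not given in the sources used here. No p-value across animals can therefore be given, and every interval below covers counting error only. Levels are unique molecular identifiers (UMIs, each standing for 1 captured transcript molecule) of a gene per 1000000 UMIs summed over the cells of a class (CPM). A level is compared between libraries as a ratio with an exact 95% interval for 2 Poisson counts. A gene is called higher or lower when this ratio passes 1.5-fold and the higher library reaches 5 CPM. Because only transcript ends are counted, levels are compared between classes and libraries within a gene, and not between genes.

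Vascular endothelial growth factor A (VEGF-A, from Vegfa) acts on endothelial cells through the receptor tyrosine kinase VEGFR2 (Kdr), while VEGFR1 (Flt1) binds it more tightly and signals weakly, and neuropilin 1 (Nrp1) is a co-receptor. Angiopoietin 1 keeps vessels quiescent through the receptor Tie2 (Tek), with Tie1 as its partner, and angiopoietin 2 (Angpt2) is a context-dependent antagonist that is stored in and released by endothelial cells. Apelin (Apln) is a peptide ligand of the G protein-coupled receptor APJ (Aplnr), and endocan (Esm1) is a secreted proteoglycan of sprouting endothelial cells. The alveolar capillaries of the mouse lung hold a pair of endothelial cell types: aerocytes, large cells that take part in gas exchange, and general capillary cells, which act as their progenitors.

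The 4 libraries held 10996 barcodes in LPS+RT, 9572 in LPS, 6708 in PBS+RT and 10083 in PBS, with 65995600 to 80013887 UMIs each. After filters and removal of likely doublets, 9153 cells in LPS+RT, 8491 in LPS, 6041 in PBS+RT and 8403 in PBS remained. Endothelial-like cells were named from markers that exclude the members. They numbered 1964 in LPS+RT (21.5% of cells), 749 in LPS (8.82%), 2178 in PBS+RT (36.1%) and 2185 in PBS (26.0%). The 9 pan-endothelial markers took part in the naming, so their level describes these cells and does not check the label. Their summed level was 12755 CPM in LPS+RT, 13775 in LPS, 12618 in PBS+RT and 15232 in PBS. General capillary-like cells numbered 1183 in LPS+RT, 475 in LPS, 1493 in PBS+RT and 1333 in PBS. Aerocyte capillary-like cells numbered 543 in LPS+RT, 197 in LPS, 449 in PBS+RT and 591 in PBS. Venous-like cells numbered 163 in LPS+RT, 46 in LPS, 188 in PBS+RT and 185 in PBS, and lymphatic-like cells 75 in LPS+RT, 31 in LPS, 48 in PBS+RT and 76 in PBS, so LPS fell below the 50 cells required of a class in both, and PBS+RT in the lymphatic-like one. General capillary-like cells came from 2 clusters whose shares differed between libraries. Cluster 1 held 703 in LPS+RT, 279 in LPS, 627 in PBS+RT and 1089 in PBS. Cluster 4, whose leading genes include the interferon-induced gene Iigp1, held 480 in LPS+RT, 196 in LPS, 866 in PBS+RT and 244 in PBS. Aerocyte capillary-like cells came from 2 clusters of unequal depth. Cluster 8, with a median of 10390 UMIs per cell, held 332 in LPS+RT, 121 in LPS, 362 in PBS+RT and 391 in PBS. Cluster 20, with a median of 1292 UMIs, held 211 in LPS+RT, 76 in LPS, 87 in PBS+RT and 200 in PBS, and Apln was among its leading genes although no member was used in the clustering. Ratios within these clusters stand beside the main calls below.

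Some features of the libraries touch the results. A cluster of UMI-poor cells with endothelial markers stayed unnamed and outside the endothelial-like class. It held 1135 cells in LPS+RT, 589 in LPS, 388 in PBS+RT and 892 in PBS. Depth also differed, with median UMIs per endothelial-like cell of 5434 in LPS+RT, 6915 in LPS, 9080 in PBS+RT and 5479 in PBS. RNA of endothelial cells was found in other classes, where the 9 markers summed to between 1.10% and 1.37% of the endothelial-like level in alveolar macrophage-like cells, 3.19% to 4.29% in B cell-like cells, 12.8% to 17.0% in alveolar type 1-like (AT1-like) cells, 25.0% to 33.8% in pericyte and smooth muscle-like cells and 44.3% to 52.7% in platelet-like cells. A member at or under such a share of its endothelial-like level is read as background in that class. In the other direction, 2 neutrophil markers summed in endothelial-like cells to 71.4 CPM in LPS+RT, 544 in LPS, 35.2 in PBS+RT and 56.5 in PBS.

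The promoters of 5 members are shown first because their genes divide the capillary endothelium: Kdr and Apln were highest in aerocyte capillary-like cells, Flt1 and Tek in general capillary-like cells, and Tie1 was found in all endothelial-like classes. Each is the 250 bases before the RefSeq transcription start, 5′ to 3′ on the strand of the gene, on GRCm38.p6. The gene positions given below come from another annotation. By that annotation most of the Tie1 window lies inside the gene. Capitals mark AGGAAG on either strand, a motif bound by ETS-family transcription factors, which are abundant in endothelial cells.
Kdr, chr5:75978456-75978705, minus strand: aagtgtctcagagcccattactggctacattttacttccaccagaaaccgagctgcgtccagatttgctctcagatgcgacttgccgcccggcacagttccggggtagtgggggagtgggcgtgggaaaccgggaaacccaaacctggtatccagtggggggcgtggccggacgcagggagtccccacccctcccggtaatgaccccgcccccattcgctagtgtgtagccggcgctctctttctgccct
Apln, chrX:48034854-48035103, minus strand: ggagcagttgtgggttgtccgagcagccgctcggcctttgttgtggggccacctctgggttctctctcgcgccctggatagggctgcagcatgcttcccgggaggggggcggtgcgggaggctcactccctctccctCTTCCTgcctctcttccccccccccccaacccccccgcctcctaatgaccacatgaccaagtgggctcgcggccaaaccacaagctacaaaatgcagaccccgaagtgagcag
Flt1, chr5:147726012-147726261, minus strand: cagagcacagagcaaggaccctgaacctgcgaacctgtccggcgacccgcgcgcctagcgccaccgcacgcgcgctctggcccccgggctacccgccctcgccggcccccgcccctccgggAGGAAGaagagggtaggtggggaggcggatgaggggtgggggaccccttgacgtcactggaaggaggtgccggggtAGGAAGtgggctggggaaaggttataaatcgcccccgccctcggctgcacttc
Tek, chr4:94739039-94739288, plus strand: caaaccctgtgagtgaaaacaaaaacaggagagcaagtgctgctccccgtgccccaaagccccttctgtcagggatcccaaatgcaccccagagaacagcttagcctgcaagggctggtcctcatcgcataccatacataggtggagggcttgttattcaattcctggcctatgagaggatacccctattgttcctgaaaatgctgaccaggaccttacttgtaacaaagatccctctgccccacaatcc
Tie1, chr4:118489850-118490099, minus strand: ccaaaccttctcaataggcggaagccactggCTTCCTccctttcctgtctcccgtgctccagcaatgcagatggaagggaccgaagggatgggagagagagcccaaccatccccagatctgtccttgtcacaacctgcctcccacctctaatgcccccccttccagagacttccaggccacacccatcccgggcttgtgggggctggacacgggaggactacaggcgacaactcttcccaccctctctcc
Flt1 held 2 matches and Tie1 and Apln held 1 each. Kdr and Tek held none in this window. Of all 27025 mouse promoters of the same length, 29.2% held at least 1 match. The letters GGGCGG, a GC box, were found 2 times in Kdr, 3 times in Flt1 and 1 time in Apln, and not in Tek or Tie1, against 32.9% of all promoters with at least 1. The letters ACGTG, 1 form of the core of hypoxia-response elements, were found in none of the 5, against 16.6% of all promoters. The other form, GCGTG, was not searched for, so these counts do not show that the core is absent. Promoters of 8 of the 10 members were matched, and those of Angpt2 and Aplnr were not used here.

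Gene positions below are whole genes, exons and introns together, on GRCm38. By level, the members fell into 3 patterns within the endothelium. Kdr, Nrp1 and Apln were highest in aerocyte capillary-like cells, Flt1, Tek, Aplnr, Esm1 and, among endothelial-like classes, Vegfa were highest in general capillary-like cells, and Angpt2 was highest in lymphatic-like cells. Tie1 was nearly even across all classes of endothelium. Apln and its receptor Aplnr were thus found in different capillary cells of the same lungs.

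**Figure D1:**
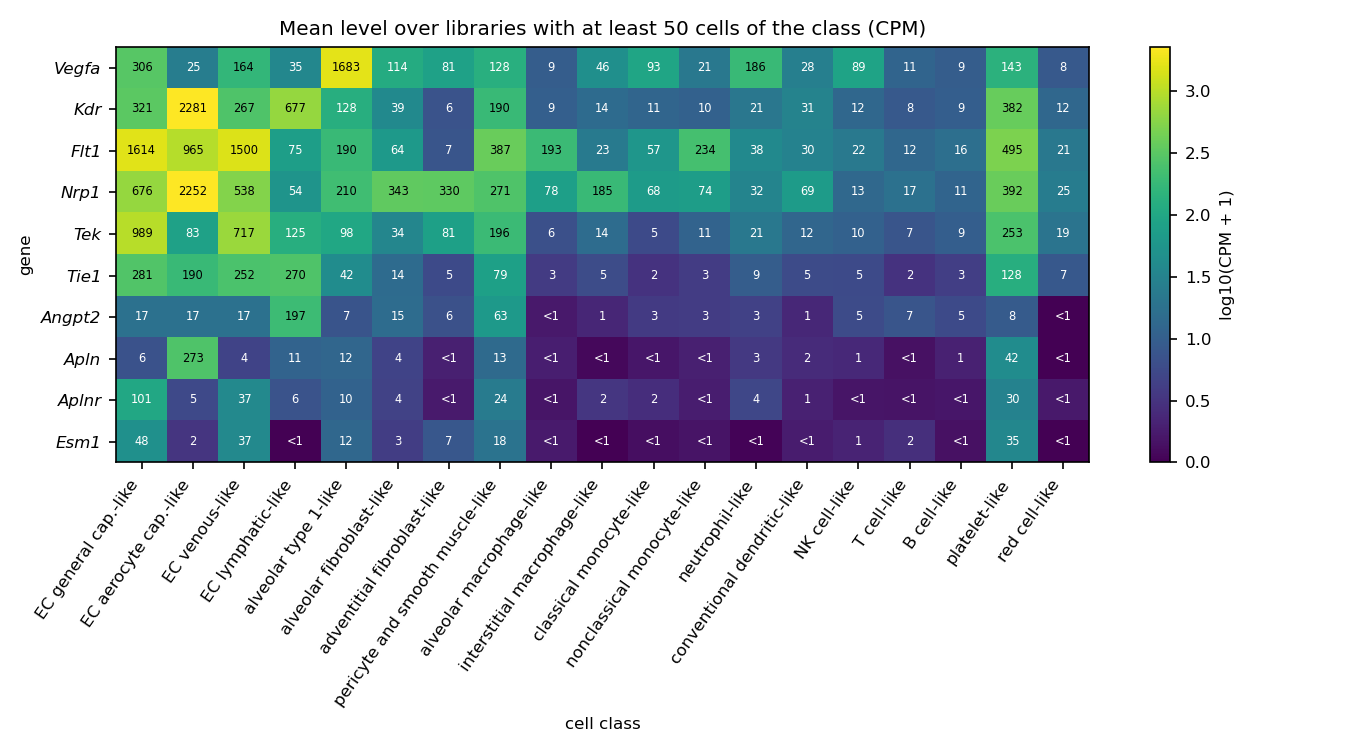
Mean level of each member (rows) in each marker-defined class (columns), in CPM averaged over the libraries with at least 50 cells of the class, with colour on a log10(CPM + 1) scale. Vegfa peaks in AT1-like cells at 1683 CPM, Kdr, Nrp1 and Apln in aerocyte capillary-like cells at 2281, 2252 and 273 CPM, and Flt1 and Tek in general capillary-like cells at 1614 and 989 CPM.

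Vegfa (chr17:46016993-46032369, minus strand) was highest in AT1-like cells, the flat epithelial cells of the alveolar surface, with 1666 CPM in LPS+RT, 1289 in LPS, 1776 in PBS+RT and 2001 in PBS. General capillary-like cells came next, with 296 CPM in LPS+RT, 239 in LPS, 293 in PBS+RT and 398 in PBS. All AT1-like values were far above the general capillary-like ones. The share of general capillary-like cells with a Vegfa UMI was 67.5% in LPS+RT, 66.3% in LPS, 81.4% in PBS+RT and 76.2% in PBS. Once each cell was thinned to 2000 UMIs, which 1126 cells in LPS+RT, 457 in LPS, 1476 in PBS+RT and 1248 in PBS reached, the share was 40.8% in LPS+RT, 35.9% in LPS, 41.2% in PBS+RT and 50.4% in PBS. Aerocyte capillary-like cells, which lie against the AT1 cells, held 21.7 CPM in LPS+RT, 27.5 in LPS, 24.8 in PBS+RT and 27.3 in PBS. The lowest general capillary-like value was thus well above the highest aerocyte capillary-like one. Neutrophil-like cells held 247 CPM in LPS+RT, 178 in LPS, 174 in PBS+RT and 147 in PBS, and venous-like cells 122 in LPS+RT, 128 in PBS+RT and 243 in PBS. Their ranges over libraries overlap each other and the lower end of the general capillary-like range. Alveolar macrophage-like cells held 8.37 CPM in LPS+RT, 4.01 in LPS, 11.5 in PBS+RT and 10.8 in PBS. In B cell-like cells, set beside them as cells with little Vegfa, it was 8.67 CPM in LPS+RT, 6.83 in LPS, 8.04 in PBS+RT and 12.1 in PBS.

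**Figure D2:**
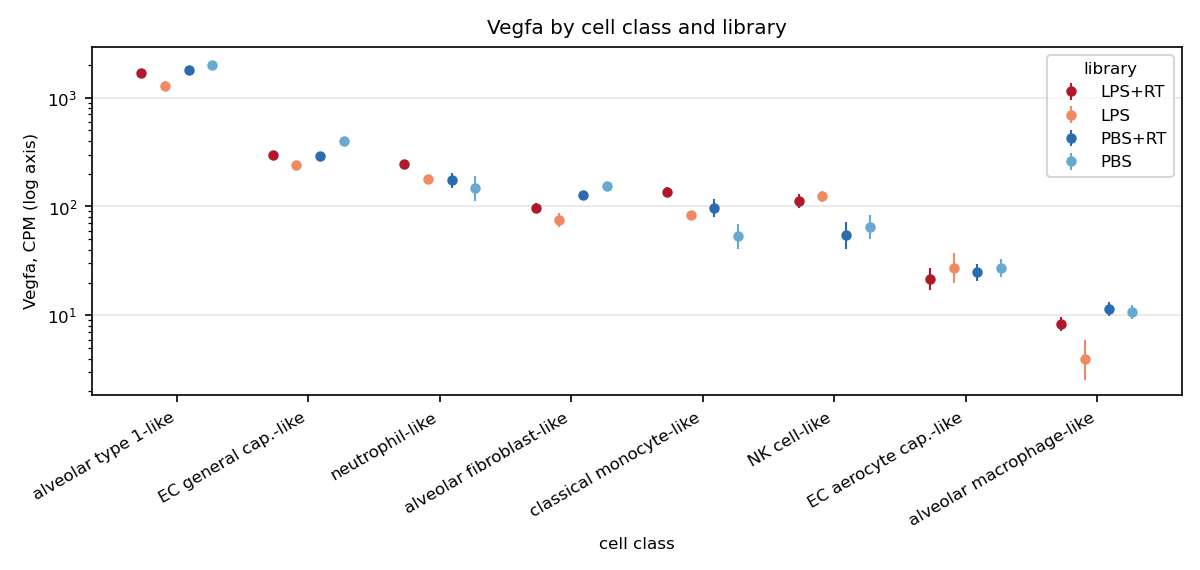
Vegfa level in CPM (log axis) in 8 marker-defined classes, 1 symbol per library with its exact Poisson 95% interval. AT1-like cells lie between 1289 and 2001 CPM, and aerocyte capillary-like cells between 21.7 and 27.5 CPM, in all 4 libraries.

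The Vegfa level was called lower in LPS than in PBS in AT1-like, alveolar fibroblast-like, general capillary-like and alveolar macrophage-like cells. B cell-like cells also passed the limit of a call, but at a level near background. The Vegfa level was called higher in NK cell-like, interstitial macrophage-like and classical monocyte-like cells. In general capillary-like cells the LPS over PBS ratio was 0.601 (95% interval 0.555 to 0.650), and it was 0.565 within cluster 1 and 0.643 within cluster 4. In AT1-like cells the ratio was 0.644 (0.576 to 0.719), from 379 UMIs in LPS and 2166 in PBS, and in alveolar fibroblast-like cells it was 0.483 (0.408 to 0.570). The fibroblast call was also met within both of the clusters of that class, at 0.426 (0.304 to 0.587) in cluster 5 and 0.509 (0.417 to 0.618) in cluster 10. AT1-like cells also came from 2 clusters, with medians of 1830 UMIs per cell in cluster 15 and 18397 in cluster 36. Vegfa in cluster 15 stood at 678 CPM in LPS+RT, 565 in LPS, 728 in PBS+RT and 841 in PBS. There the LPS over PBS ratio was 0.672 (0.542 to 0.827), just short of a call. In cluster 36 Vegfa stood at 3016 CPM in LPS+RT, 2870.3 in LPS, 2397 in PBS+RT and 3154 in PBS, with only 5 cells in LPS against 35 in PBS. The AT1-like ratio thus carries the smaller part of cluster 36 in the LPS library. By contrast, aerocyte capillary-like cells had a ratio of 1.01 (0.683 to 1.46). NK cell-like cells held 124 CPM in LPS and 64.9 in PBS, a ratio of 1.91 (1.45 to 2.55). Interstitial macrophage-like cells held 52.6 CPM in LPS and 14.7 in PBS, a ratio of 3.58 (1.78 to 8.40) that rests on 8 UMIs in PBS. Alveolar macrophage-like cells had a ratio of 0.373 (0.232 to 0.574) from 24 UMIs in LPS and 166 in PBS, and B cell-like cells one of 0.566 (0.290 to 1.049) from 15 UMIs in LPS and 39 in PBS. The B cell-like interval includes even, so no difference is read in these cells. Classical monocyte-like cells held 82.9 CPM in LPS and 53.3 in PBS, a ratio of 1.56 (1.20 to 2.05), but different clusters made up the class. Cluster 17, led by Saa3, Arg1 and Nos2, held 108 cells in LPS+RT, 548 in LPS, 0 in PBS+RT and 2 in PBS, and cluster 29, led by F13a1 and Plac8, held 91 in LPS+RT, 98 in LPS, 66 in PBS+RT and 81 in PBS. Within cluster 29 the LPS over PBS ratio of Vegfa was 0.700 (0.478 to 1.02), not called and on the other side of even, and the LPS+RT over PBS+RT ratio was 0.511 (0.370 to 0.6998). Cluster 17 held Vegfa at 182 CPM in LPS+RT and 87.5 in LPS. With X-rays in both libraries, LPS+RT against PBS+RT, the ratio was 1.01 (0.956 to 1.07) in general capillary-like and 0.938 in AT1-like cells, close to even in both. In NK cell-like cells it was 2.05 (1.502 to 2.84), beside the 1.91 without X-rays. Venous-like cells held 128 CPM in PBS+RT and 243 in PBS, a ratio of 0.525 (0.440 to 0.626), and within cluster 24, which held most of them, it was 0.498 (0.415 to 0.596). Conventional dendritic-like cells held 48.0 CPM in LPS+RT and 12.3 in LPS, a ratio of 3.89 (2.41 to 6.48).

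The cells that held the Vegfa UMIs also differed between libraries. Neutrophil-like cells held 7.32% of the Vegfa UMIs in LPS+RT, 38.6% in LPS, 1.64% in PBS+RT and 0.73% in PBS. Endothelial-like cells held 31.8% in LPS+RT, 13.2% in LPS, 44.6% in PBS+RT and 43.2% in PBS, and AT1-like cells 21.6% in LPS+RT, 5.43% in LPS, 36.0% in PBS+RT and 27.3% in PBS. The neutrophil share followed the number of neutrophil-like cells, which was 553 in LPS+RT, 2940 in LPS, 107 in PBS+RT and 62 in PBS, while their Vegfa level was 178 CPM in LPS and 147 CPM in PBS. These cells lay in different clusters. Clusters 6, led by Csf3 and Ccl3, and 21, led by interferon-induced genes such as Rsad2, held 1466 and 534 cells in LPS and 4 and 0 in PBS. Cluster 16, led by Ngp and Camp, held 396 in LPS and 44 in PBS, and there Vegfa stood at 200.3 CPM in LPS+RT, 239 in LPS, 182 in PBS+RT and 178 in PBS.

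Kdr (chr5:75932827-75978458, minus strand), the main signalling receptor for VEGF-A, was an aerocyte gene in these lungs. Aerocyte capillary-like cells held 2076 CPM in LPS+RT, 2336 in LPS, 2352 in PBS+RT and 2361 in PBS. Lymphatic-like cells followed with 673 CPM in LPS+RT and 682 in PBS, then general capillary-like cells with 285 CPM in LPS+RT, 379 in LPS, 292.5 in PBS+RT and 328 in PBS, and venous-like cells with 212 in LPS+RT, 312 in PBS+RT and 276 in PBS. Aerocyte, lymphatic and general capillary levels did not overlap between classes in any library, while general capillary and venous levels did. In AT1-like cells Kdr stood at 123 CPM in LPS+RT, 95.2 in LPS, 171 in PBS+RT and 124 in PBS, or 10.5% to 21.4% of its endothelial-like level, against 12.8% to 17.0% for the endothelial markers. The share of aerocyte capillary-like cells with a Kdr UMI was 86.2% in LPS+RT, 88.8% in LPS, 93.3% in PBS+RT and 93.6% in PBS. The level differed little between libraries: the LPS over PBS ratio in aerocyte capillary-like cells was 0.990 (0.951 to 1.03) and the LPS+RT over PBS+RT ratio was 0.883 (0.857 to 0.909).

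Flt1 (chr5:147561604-147726011, minus strand), the high-affinity receptor that limits free VEGF-A, had the opposite order. General capillary-like cells held 1656 CPM in LPS+RT, 1538 in LPS, 1899 in PBS+RT and 1365 in PBS, and venous-like cells held 1476 in LPS+RT, 1652 in PBS+RT and 1371 in PBS, which overlap. Aerocyte capillary-like cells were lower in every library, with 1031 CPM in LPS+RT, 944 in LPS, 1021 in PBS+RT and 865 in PBS. In pooled endothelial-like cells Flt1 stood at 1392 CPM in LPS+RT, 1262 in LPS, 1628 in PBS+RT and 1179 in PBS. No ratio reached 1.5-fold, and the one furthest from even was PBS+RT over PBS at 1.38 (1.36 to 1.41). Within the general capillary clusters this ratio was 1.36 in cluster 1 and 1.09 in cluster 4.

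Outside the endothelium, Flt1 was also found in alveolar macrophage-like cells and in monocyte-like cells. In interstitial macrophage-like cells it stood at 0.90% to 2.34% of its endothelial-like level and in conventional dendritic-like cells at 1.42% to 2.85%, where the endothelial markers stood at 1.03% to 3.00% and 1.749% to 2.22% in the same libraries, so it was near background there. Alveolar macrophage-like cells held 138 CPM in LPS+RT, 92.8 in LPS, 264 in PBS+RT and 277 in PBS. As a share of the endothelial-like level this was 9.9% in LPS+RT, 7.4% in LPS, 16.2% in PBS+RT and 23.5% in PBS. The 9 endothelial markers stood at no more than 1.37% of theirs in these cells, so this level is above that background. The share of alveolar macrophage-like cells with an Flt1 UMI was 87.2% in LPS+RT, 73.2% in LPS, 94.1% in PBS+RT and 91.8% in PBS. These cells are deeply sequenced. After thinning to 2000 UMIs, which 812 cells in LPS+RT, 171 in LPS, 684 in PBS+RT and 643 in PBS reached, the share was 22.2% in LPS+RT, 18.7% in LPS, 39.5% in PBS+RT and 39.5% in PBS. In thinned B cell-like cells, which should lack the receptor, the share was 2.73% in LPS+RT, 1.75% in LPS, 2.63% in PBS+RT and 1.56% in PBS, over 439 cells in LPS+RT, 401 in LPS, 380 in PBS+RT and 514 in PBS. The LPS over PBS ratio in alveolar macrophage-like cells was 0.335 (0.306 to 0.366) and the LPS+RT over PBS+RT ratio was 0.524 (0.5003 to 0.549), but these cells also moved between clusters. Cluster 7, led by Fabp1, held 217 cells in LPS+RT, 9 in LPS, 675 in PBS+RT and 577 in PBS. Cluster 13, whose leading genes include Marco and the proliferation genes Pclaf and Rrm2, held 580 in LPS+RT, 151 in LPS, 9 in PBS+RT and 54 in PBS. Within cluster 7 Flt1 stood at 231 CPM in LPS+RT, 91.3 in LPS (15 UMIs), 266 in PBS+RT and 302 in PBS, and the LPS+RT over PBS+RT ratio was 0.868 (0.811 to 0.930). Within cluster 13 it stood at 115 CPM in LPS+RT, 93.3 in LPS, 138 in PBS+RT and 109 in PBS, and the LPS over PBS ratio was 0.859 (0.731 to 1.01). Neither ratio is called, so the lower level of the class was not met in these comparisons. For LPS against PBS in cluster 7, the level was lower in LPS, at 91.3 CPM against 302. That LPS value rests on 15 UMIs in 9 cells, too few for a call. How far the lower level of the class went with the shift between the clusters was not tested. Classical monocyte-like cells held 24.9 CPM in LPS+RT, 23.8 in LPS, 79.0 in PBS+RT and 102 in PBS, with ratios of 0.233 (0.189 to 0.289) for LPS over PBS and 0.315 (0.234 to 0.424) for LPS+RT over PBS+RT. Here too clusters 17 and 29 differed. Within cluster 29 Flt1 stood at 59.3 CPM in LPS+RT, 89.4 in LPS, 79.0 in PBS+RT and 105 in PBS, with uncalled ratios of 0.854 (0.660 to 1.11) for LPS over PBS and 0.751 (0.547 to 1.03) for LPS+RT over PBS+RT. In cluster 17, nearly all of it from the libraries with LPS, it stood at 7.20 CPM in LPS+RT and 17.1 in LPS. Nonclassical monocyte-like cells, which came from 1 cluster, held 253 CPM in LPS+RT, 108 in LPS, 312 in PBS+RT and 262 in PBS. There the LPS library alone stood apart, at 0.411 (0.334 to 0.506) of PBS, while LPS+RT was 2.34 (1.86 to 2.95) times LPS.

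Nrp1 (chr8:128358604-128503363, plus strand), the co-receptor that VEGF-A shares with class 3 semaphorins, resembled Kdr in capillary-like but not in lymphatic-like cells. Lymphatic-like cells held the lowest Nrp1 level of the endothelial-like classes, with a mean of 53.7 CPM (41.0 to 66.4 over 2 libraries). For Kdr, these cells came next after the aerocyte capillary-like cells. Aerocyte capillary-like cells held 1946 CPM in LPS+RT, 2293 in LPS, 2639.9 in PBS+RT and 2128 in PBS, while general capillary-like cells held 591 CPM in LPS+RT, 769 in LPS, 711 in PBS+RT and 633 in PBS. Venous-like cells held 410 in LPS+RT, 652 in PBS+RT and 553 in PBS, in a range that overlaps the general capillary one. Unlike Kdr, Nrp1 was also found in the stroma, where alveolar fibroblast-like cells held 293 CPM in LPS+RT, 375 in LPS, 439 in PBS+RT and 266 in PBS, or 25.4% to 37.9% of the endothelial-like level against 3.42% to 6.92% for the endothelial markers. In these fibroblasts the PBS+RT over PBS ratio was 1.65 (1.53 to 1.77), with 1.39 in cluster 5 and 1.66 in cluster 10, and in adventitial fibroblast-like cells it was 1.73 (1.54 to 1.94). Interstitial macrophage-like cells held 147 CPM in LPS+RT, 92.2 in LPS and 318 in PBS, with an LPS over PBS ratio of 0.290 (0.242 to 0.350). In the pooled endothelial-like cells no Nrp1 ratio passed 1.5-fold, and aerocyte capillary-like cells were at 0.737 (0.716 to 0.759) in LPS+RT over PBS+RT.

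Tek (chr4:94739289-94874976, plus strand), the angiopoietin receptor, was a general capillary and venous gene. General capillary-like cells held 857 CPM in LPS+RT, 1060.4 in LPS, 1061 in PBS+RT and 977 in PBS, and venous-like cells held 622 in LPS+RT, 767 in PBS+RT and 762 in PBS. The general capillary level was above the venous one in each of these 3 libraries, and the ranges did not overlap. Aerocyte capillary-like cells, which had the highest Kdr, held 74.7 CPM in LPS+RT, 64.3 in LPS, 96.3 in PBS+RT and 95.1 in PBS. Tek in endothelial-like cells stood at 573 CPM in LPS+RT and 783 in PBS+RT, a ratio of 0.731 (0.711 to 0.753) that is not called, and the LPS over PBS ratio was 1.05. Adventitial fibroblast-like cells held 47.1 CPM in LPS+RT and 109 in PBS+RT, a ratio of 0.431 (0.311 to 0.589). In that class Tek stood at 8.2% and 13.9% of its endothelial-like level, against 2.16% and 1.64% for the endothelial markers.

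Tie1 (chr4:118471191-118490061, minus strand), the orphan partner of Tie2, was the most even member. General capillary-like cells held 291 CPM in LPS+RT, 276 in LPS, 250.5 in PBS+RT and 307 in PBS, lymphatic-like cells 292 in LPS+RT and 249 in PBS, and venous-like cells 254 in LPS+RT, 229 in PBS+RT and 273 in PBS. These 3 classes overlapped. Aerocyte capillary-like cells were below the general capillary-like cells in each library at 199 CPM in LPS+RT, 189.5 in LPS, 163 in PBS+RT and 208 in PBS. All 4 ratios of Tie1 in endothelial-like cells lay between 0.836 and 1.14.

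**Figure D3:**
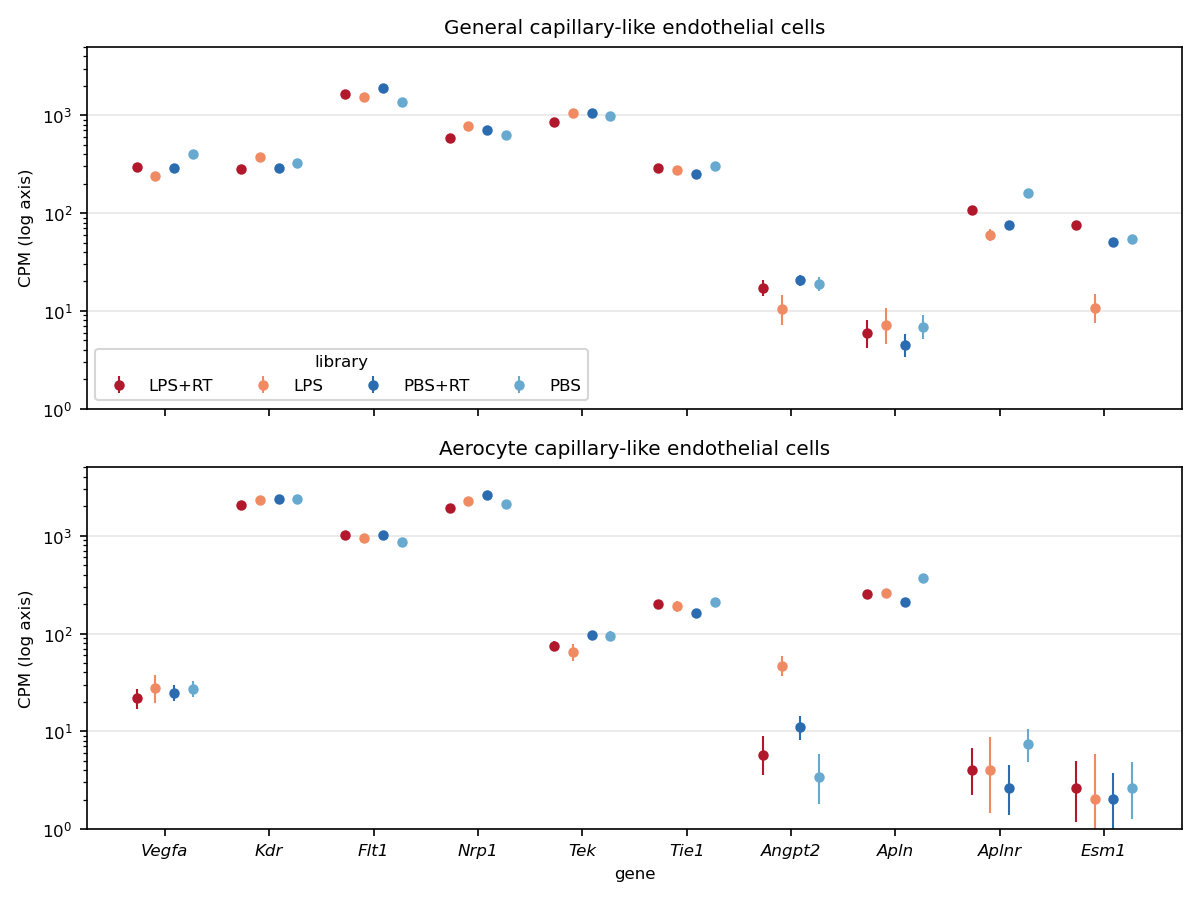
Level of each member in CPM (log axis) in general capillary-like cells (top) and aerocyte capillary-like cells (bottom), 1 symbol per library with its exact Poisson 95% interval. Kdr lies at 285 to 379 CPM in the upper panel and 2076 to 2361 CPM in the lower one, while Tek lies at 857 to 1061 CPM above and 64.3 to 96.3 CPM below.

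Angpt2 (chr8:18690263-18741562, minus strand) was low in endothelial-like cells, spread over many of them in the PBS libraries and held more by a few in the LPS libraries. The pooled level was 24.8 CPM in LPS+RT, 41.7 in LPS, 20.6 in PBS+RT and 15.8 in PBS. These rest on 287 UMIs in 152 cells in LPS+RT, 235 in 65 cells in LPS, 421 in 294 cells in PBS+RT and 205 in 172 cells in PBS. Cells with at least 5 Angpt2 UMIs held 40.8% of them in LPS+RT, 72.8% in LPS, 11.4% in PBS+RT and 2.44% in PBS. The LPS over PBS ratio was 2.64 (2.18 to 3.19) and the LPS+RT over LPS ratio was 0.595 (0.499 to 0.710), both called. The call of LPS over PBS was lost without the lymphatic-like cluster, with equal weight for each cell and with called doublets kept, and that of LPS+RT over LPS in the last pair of these. In lymphatic-like cells Angpt2 stood at 310 CPM in LPS+RT, 356 in LPS, 120 in PBS+RT and 84.6 in PBS, the highest endothelial level, with LPS and PBS+RT resting on 31 and 48 cells. The UMIs were held unevenly. Lymphatic-like cells with at least 5 Angpt2 UMIs numbered 7 in LPS+RT, 10 in LPS, 3 in PBS+RT and 1 in PBS. Their part of the Angpt2 UMIs of the class was 83.6% in LPS+RT, 95.3% in LPS, 58.5% in PBS+RT and 15.2% in PBS. Outside the endothelium, pericyte and smooth muscle-like cells held 53.1 CPM in LPS+RT, 57.3 in LPS, 84.7 in PBS+RT and 56.6 in PBS, above the endothelial-like level in every library.

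The capillary classes differed from the pooled value. In general capillary-like cells Angpt2 was lower in LPS, at 10.4 CPM against 18.9 in PBS, a ratio of 0.548 (0.368 to 0.798) from 35 and 143 UMIs. The ratio was 0.581 (0.351 to 0.922) in cluster 1 and 0.540 (0.254 to 1.096) in cluster 4, the last from 13 UMIs in LPS and 25 in PBS. Aerocyte capillary-like cells held 5.79 CPM in LPS+RT, 46.9 in LPS, 10.97 in PBS+RT and 3.41 in PBS, with an LPS over PBS ratio of 13.7 (7.53 to 27.1). This high LPS value rests on 5 of 197 cells, which held 50 of the 70 UMIs. Those 5 cells had no UMI of the lymphatic markers Prox1, Mmrn1 and Ccl21a, while Lyve1 stood at 1225 CPM in them, against 150 CPM in the other 192 aerocyte capillary-like cells and 597 CPM in lymphatic-like cells of the same library. Kdr was 2464 CPM in the 5 cells and 2330 CPM in the others, and the aerocyte gene Car4 was 544 and 1636 CPM. The 5 cells were singled out by their Angpt2 counts, so these values are a description.

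Apln (chrX:48025146-48034853, minus strand) was found mostly in aerocyte capillary-like cells, which held 79.2% of all its UMIs in LPS+RT, 73.3% in LPS, 84.2% in PBS+RT and 79.6% in PBS. The level there was 254 CPM in LPS+RT, 259.8 in LPS, 208 in PBS+RT and 369 in PBS, highest in the PBS library. General capillary-like cells held 5.92 CPM in LPS+RT, 7.105 in LPS, 4.47 in PBS+RT and 6.87 in PBS. Within aerocyte capillary-like cells the LPS over PBS ratio was 0.704 (0.628 to 0.788) and is not called, and the PBS+RT over PBS ratio was 0.564 (0.520 to 0.612) and is. The LPS+RT over PBS+RT ratio was 1.22 (1.11 to 1.34). The PBS+RT over PBS call was met within both clusters, at 0.569 (0.523 to 0.618) in cluster 8 and 0.455 (0.286 to 0.700) in cluster 20. The LPS over PBS ratio was 0.724 (0.643 to 0.815) in cluster 8, and 0.516 (0.329 to 0.783) in cluster 20, where it is called. The share of thinned aerocyte capillary-like cells with an Apln UMI was 34.8% in LPS+RT, 34.3% in LPS, 29.9% in PBS+RT and 45.3% in PBS, so the PBS library was also highest by this measure. Cells deep enough to be thinned numbered 356 in LPS+RT, 140 in LPS, 381 in PBS+RT and 430 in PBS. Without thinning the share was 55.4% in LPS+RT, 56.3% in LPS, 60.8% in PBS+RT and 64.6% in PBS.

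Aplnr (chr2:85136225-85139923, plus strand), the apelin receptor, was found in the other capillary cell. General capillary-like cells held 108 CPM in LPS+RT, 60.1 in LPS, 75.0 in PBS+RT and 160 in PBS. These rest on 710 UMIs in LPS+RT, 203 in LPS, 990 in PBS+RT and 1214 in PBS. Aerocyte capillary-like cells held 4.06 CPM in LPS+RT, 4.02 in LPS, 2.64 in PBS+RT and 7.35 in PBS. In the PBS library, 433 endothelial-like cells had an Apln UMI and 727 had an Aplnr UMI, and 38 cells had both. In the other libraries the cells with both numbered 24 in LPS+RT, 6 in LPS and 31 in PBS+RT. Of the 433 Apln-positive cells in PBS, 414 also had a Kdr UMI, and 702 of the 727 Aplnr-positive cells had a Tek UMI. These overlaps also carry how often each gene is detected, which was not set apart. In the PBS endothelial-like cells with no Esm1 UMI, Kdr held 11684 UMIs and Tek 8069, against 1448 for Apln and 1217 for Aplnr. In general capillary-like cells Aplnr was lower in LPS than in PBS, at a ratio of 0.375 (0.321 to 0.435), and lower in PBS+RT than in PBS, at 0.468 (0.429 to 0.509). In LPS+RT it was 1.79 (1.53 to 2.11) times the LPS level. Each of these 3 calls was also met within both clusters. For LPS over PBS the ratio was 0.343 in cluster 1 and 0.484 in cluster 4, for PBS+RT over PBS it was 0.452 and 0.566, and for LPS+RT over LPS it was 1.93 and 1.63. The LPS+RT over PBS+RT ratio of 1.44 (1.30 to 1.59) is on the other side of even but is not called. The share of thinned general capillary-like cells with an Aplnr UMI was 17.1% in LPS+RT, 11.6% in LPS, 13.1% in PBS+RT and 24.4% in PBS, in the same order as the levels. Without thinning it was 37.8% in LPS+RT, 25.5% in LPS, 40.2% in PBS+RT and 50.6% in PBS.

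Esm1 (chr13:113209659-113218098, plus strand) stood out among the members in the LPS library. General capillary-like cells held 75.3 CPM in LPS+RT, 10.7 in LPS, 50.2 in PBS+RT and 53.8 in PBS. These rest on 496 UMIs in LPS+RT, 36 in LPS, 663 in PBS+RT and 407 in PBS. The LPS over PBS ratio was 0.198 (0.137 to 0.279), whereas LPS+RT was 7.07 (5.04 to 10.2) times LPS and 1.5002 (1.33 to 1.69) times PBS+RT, just over the limit of a call. In these cells the LPS library was alone in being low. Venous-like cells came next with 14.97 CPM in LPS+RT, 51.2 in PBS+RT and 45.7 in PBS, from 16, 94 and 54 UMIs, while the 46 cells of the LPS library held 1 UMI. There LPS+RT was also low, at 0.292 (0.160 to 0.4996) of PBS+RT, on the other side of even from general capillary-like cells. Within cluster 1 the LPS over PBS ratio was 0.115 (0.0604 to 0.198), and within cluster 4 it was 0.451 (0.264 to 0.748). LPS+RT over LPS was 14.3 (8.25 to 27.1) in cluster 1 and 3.11 (1.996 to 5.06) in cluster 4. LPS+RT over PBS+RT was 1.76 (1.5014 to 2.06) in cluster 1 but 1.06 (0.866 to 1.28) in cluster 4, so this call was met in only 1 of the 2 clusters. Aerocyte capillary-like cells held 2.01 to 2.63 CPM in the 4 libraries. Lymphatic-like cells held no Esm1 UMI in any library, which allows up to 6.64 CPM in LPS+RT, 8.41 in LPS, 6.78 in PBS+RT and 7.69 in PBS.

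Most Esm1 UMIs were held by few cells. Of the endothelial-like cells, 71 in LPS+RT, 15 in LPS, 103 in PBS+RT and 95 in PBS had at least 1 Esm1 UMI. Those with at least 5 numbered 28 in LPS+RT, 2 in LPS, 28 in PBS+RT and 23 in PBS. Their part of the Esm1 UMIs was 85.6% in LPS+RT, 47.5% in LPS, 85.5% in PBS+RT and 77.3% in PBS. As shares of endothelial-like cells they made up 1.43% (exact Clopper-Pearson 95% interval 0.949% to 2.05%) in LPS+RT, 0.267% (0.0324% to 0.961%) in LPS, 1.29% (0.856% to 1.85%) in PBS+RT and 1.05% (0.668% to 1.58%) in PBS. The share was lowest in LPS, where it rests on 2 cells. General capillary-like cells with at least 5 Esm1 UMIs also held more Dll4, the Notch ligand of sprouting tip cells, with 494 CPM in LPS+RT, 903 in LPS, 425 in PBS+RT and 456 in PBS. General capillary-like cells with no Esm1 UMI held 110.4 CPM of Dll4 in LPS+RT, 125 in LPS, 82.6 in PBS+RT and 118 in PBS. Hey1, a Notch target, stood in the first set at 232 CPM in LPS+RT, 258 in LPS, 233 in PBS+RT and 423 in PBS, and in cells with no Esm1 UMI at 73.3 CPM in LPS+RT, 50.3 in LPS, 75.0 in PBS+RT and 83.7 in PBS. Pdgfb, another tip cell gene, went the other way, with 80.6 CPM in LPS+RT, 64.5 in LPS, 99.97 in PBS+RT and 81.4 in PBS in the first set, and 178 in LPS+RT, 197 in LPS, 189 in PBS+RT and 218 in PBS in cells with no Esm1 UMI. The collagen Col4a1 was lower in the first set in LPS+RT, LPS and PBS and higher in PBS+RT. Arterial markers went both ways. Sox17, Gja4 and Mgp were lower in the first set in all 4 libraries. Hey1, itself an arterial marker, was higher, as were Gja5 and Bmx except in LPS, where both held 0 UMIs. Gja5 stood in the first set at 101 CPM in LPS+RT, 29.2 in PBS+RT and 57.0 in PBS. In cells with no Esm1 UMI it stood at 2.905, 1.46 and 5.26 CPM. The other arterial markers, Fbln5, Htra1 and Dkk2, held few or no UMIs in the first set. Summed lymphatic markers were higher in the first set, with 1245 CPM in LPS+RT, 645 in LPS, 1225 in PBS+RT and 1392 in PBS. In cells with no Esm1 UMI they summed to 610 CPM in LPS+RT, 560 in LPS, 682 in PBS+RT and 506 in PBS. At least 3 of these 8 markers held no UMI in the first set in each library. Summed general capillary markers were lower in the first set in LPS+RT, LPS and PBS+RT and slightly higher in PBS. The LPS values of the first set rest on 2 cells, and the limit of 5 UMIs was chosen after the values were seen.

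**Figure D4:**
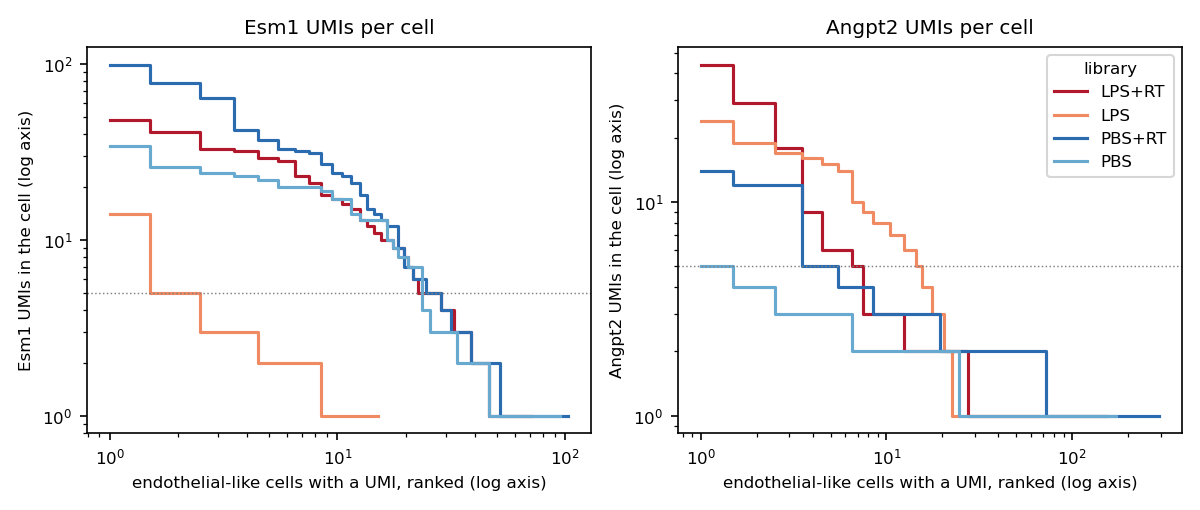
UMIs of Esm1 and Angpt2 in each endothelial-like cell, cells ranked by their count (both axes log), 1 line per library; the dotted line marks 5 UMIs. In LPS, 2 cells pass that line for Esm1, against 28 in LPS+RT, 28 in PBS+RT and 23 in PBS.

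Counted over all 10 members in endothelial-like cells, LPS against PBS gave 1 member called higher (Angpt2) and 4 called lower (Vegfa, Apln, Aplnr and Esm1). Of all 11111 genes tested in that comparison, 11.9% were called higher and 9.22% lower. The member ratios were 0.621 (0.577 to 0.668) for Vegfa, 0.654 (0.585 to 0.730) for Apln, 0.373 (0.321 to 0.432) for Aplnr and 0.195 (0.138 to 0.270) for Esm1. The Apln ratio within aerocyte capillary-like cells, given above, was not called. The members called lower were thus 4 of 10, against 9.22% of all genes, and the median log2 ratio of the members was -0.11 against 0.01 for all genes. The 5 receptors of the VEGF and Tie systems were not among them: Kdr, Flt1, Nrp1, Tek and Tie1 lay between 0.886 and 1.07.

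LPS+RT against PBS+RT gave no member called in either direction in endothelial-like cells, where 8.07% of 10867 genes were called higher and 6.63% lower. With 1 library a group no test was made, so no count by p-value can be set beside this 0. Apln, at 1.497 (1.37 to 1.64), fell just short of the limit and passed it under several other settings. Within aerocyte capillary-like cells, which held most Apln UMIs, the ratio given above was nearer to even and not called. These cells were 27.6% of endothelial-like cells in LPS+RT and 20.6% in PBS+RT. The part of this difference in the pooled Apln ratio was not tested. The same LPS injection thus went with 5 calls among the members without X-rays and 0 with them. A count of 0 in 10 is near the shares of all genes in this comparison. Those shares were also smaller than the 11.9% higher and 9.22% lower of LPS against PBS. The difference between the counts was not tested, and it also carries the state of the PBS+RT library.

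PBS+RT against PBS gave 0 members called higher and 2 called lower, Apln at 0.472 (0.436 to 0.511) and Aplnr at 0.518 (0.477 to 0.563), against 11.3% and 14.8% of 10881 genes. A share of 2 in 10 is near this background. Both apelin genes were lower in their own capillary class, Apln in aerocyte capillary-like and Aplnr in general capillary-like cells. LPS+RT against LPS gave 2 members called higher, Aplnr at 1.79 (1.54 to 2.10) and Esm1 at 6.35 (4.60 to 8.99), and 1 called lower, Angpt2, against 5.43% and 9.72% of 11042 genes. Pairs of comparisons share libraries, PBS and LPS above all, so calls in one are not independent of calls in another.

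The UMI-poor cells with endothelial markers, which were outside all these counts, gave a second look at the members in other cells of the same libraries. Aplnr stood there at 56.1 CPM in LPS+RT, 32.1 in LPS, 47.5 in PBS+RT and 67.3 in PBS, and the LPS over PBS ratio was 0.476 (0.297 to 0.745), on the same side as in endothelial-like cells. Esm1 stood at 29.7 CPM in LPS+RT, 12.2 in LPS, 53.4 in PBS+RT and 58.4 in PBS, with an LPS over PBS ratio of 0.208 (0.0986 to 0.400) from 11 and 59 UMIs. Its LPS+RT over PBS+RT ratio was 0.556 (0.328 to 0.953), on the other side of even from general capillary-like cells. Apln and Vegfa were not called there in LPS against PBS, with ratios of 0.781 (0.464 to 1.30) and 0.678 (0.540 to 0.8497). In LPS+RT against PBS+RT, Kdr at 0.659 (0.561 to 0.776) and Nrp1 at 0.582 (0.499 to 0.679) were called lower in these cells, which they were not in endothelial-like cells. Angpt2, with 4 UMIs in LPS+RT and 6 in PBS+RT, is left without a reading.

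In general capillary-like cells alone the counts were 0 higher and 4 lower for LPS against PBS (Vegfa, Angpt2, Aplnr and Esm1), 1 higher for LPS+RT against PBS+RT (Esm1), 2 lower for PBS+RT against PBS (Apln and Aplnr) and 3 higher for LPS+RT against LPS (Angpt2, Aplnr and Esm1). Of all genes tested in these cells, 10.8% were higher and 11.1% lower for LPS against PBS, 7.54% and 6.78% for LPS+RT against PBS+RT, 9.75% and 16.1% for PBS+RT against PBS, and 7.03% and 10.5% for LPS+RT against LPS. The 4 lower of 10 and the 3 higher of 10 are above these shares, and the 2 lower of 10 is near its own. In aerocyte capillary-like cells they were 1 higher and 1 lower of 9 counted members for LPS against PBS (Angpt2 and Aplnr), 1 lower of 8 for LPS+RT against PBS+RT (Angpt2), 1 higher and 2 lower of 9 for PBS+RT against PBS (Angpt2, then Apln and Aplnr) and 1 lower of 8 for LPS+RT against LPS (Angpt2). Of all genes tested there, 16.4% were higher and 12.8% lower for LPS against PBS, 9.52% and 11.8% for LPS+RT against PBS+RT, 17.3% and 14.2% for PBS+RT against PBS, and 9.89% and 13.6% for LPS+RT against LPS, so these counts are near the background. Aplnr stood under 8 CPM throughout in aerocyte capillary-like cells.

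**Figure D5:**
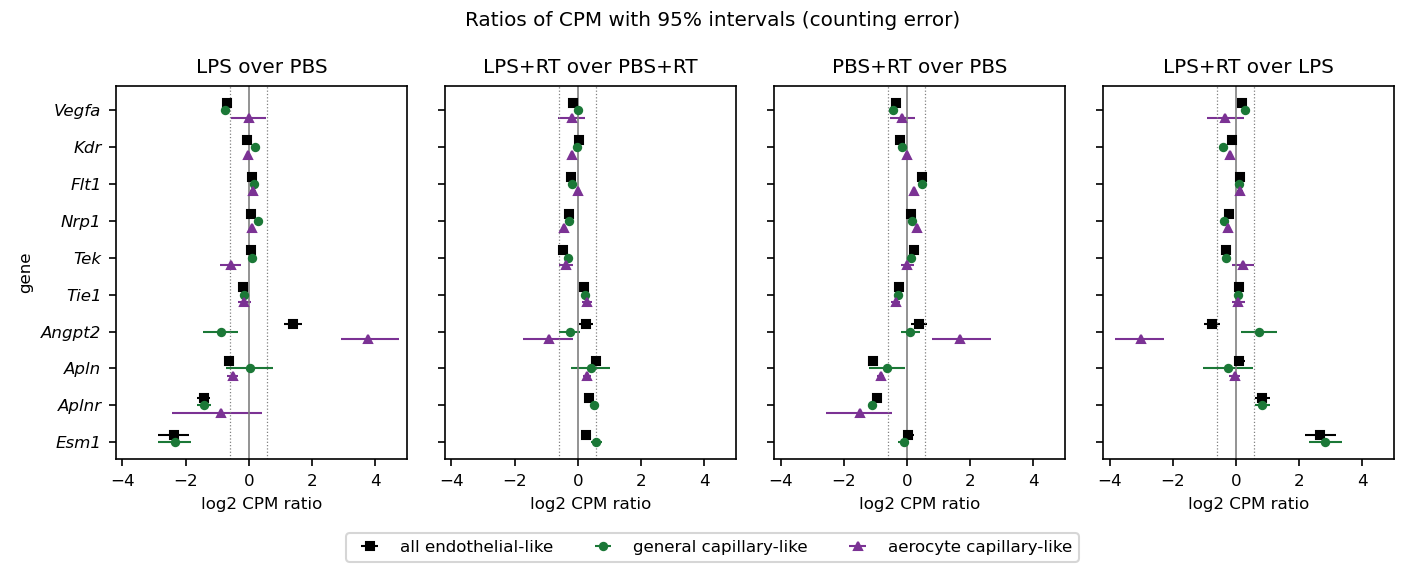
Log2 ratio of CPM for each member with its exact 95% interval in 4 comparisons (panels: LPS over PBS, LPS+RT over PBS+RT, PBS+RT over PBS, LPS+RT over LPS), in all endothelial-like, general capillary-like and aerocyte capillary-like cells; dotted lines mark 1.5-fold. Esm1 in endothelial-like cells stands at a log2 ratio of -2.36 in LPS over PBS and 0.26 in LPS+RT over PBS+RT, while Kdr, Flt1, Nrp1, Tek and Tie1 stay within the dotted lines in all 4 panels for that class.

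The partners of the members were read in 10 lists of 96 genes, in endothelial-like cells. For LPS against PBS, where 11.9% of all genes were higher and 9.22% lower, 1 of 6 counted genes of the wider VEGF family was higher: Nrp2, a co-receptor prominent in veins and lymphatics, with 119 CPM in LPS and 52.8 in PBS, a ratio of 2.26 (2.03 to 2.52). The lymphatic growth factor Vegfc (ratio 1.32) and its receptor Flt4 (0.882) were not called. None of 4 angiopoietin and Tie partners was called, with the Tie2 phosphatase Ptprb at 0.843, and none of 2 apelin partners. Of 11 semaphorins and plexins, which share the neuropilins with VEGF-A, 2 were higher: the secreted semaphorins Sema3a at 2.76 and Sema3d at 2.41, the last also a leading gene of the lymphatic-like cluster.

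Sprouting, or tip cell, genes differed in both directions in LPS against PBS: 7 of 16 were higher and 3 lower, with a list median log2 ratio of 0.42. The capillary classes differed. General capillary-like cells had 4 of 13 higher and 2 lower, with a median of 0.04. Aerocyte capillary-like cells had 6 of 11 higher and 2 lower, with a median of 0.62. The basement membrane collagen Col4a2 stood at 1069.7 CPM in LPS and 519.8 in PBS, a ratio of 2.06 (1.99 to 2.13), and the laminin chain Lama4 at 1.81. Cxcr4, a chemokine receptor of tip cells, was lower at 0.545, as was Esm1 among the members. Of 8 Notch genes, 3 were lower and none higher: Hey1 at 0.545, Nrarp at 0.565 and Hes1 at 0.621, with 192 CPM in LPS and 308 in PBS. Among 12 genes of VEGF signalling, the early-response gene Nr4a1 was the 1 lower, at 0.578.

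Of 13 hypoxia and HIF genes, 3 were higher and 1 lower in LPS against PBS. Ankrd37, a HIF target, stood at 64.1 CPM in LPS and 15.9 in PBS, a ratio of 4.03 (3.39 to 4.80), Hif1a at 2.16 and the glucose transporter Slc2a1 at 1.94. Of 5 angiogenesis inhibitors, 3 were higher, among them Col18a1, the source of endostatin, with 54.9 CPM in LPS and 8.11 in PBS, a ratio of 6.76 (5.40 to 8.52), and Thbs1 at 2.09. The median log2 ratio of this list was 1.07, with 0.18 in general capillary-like and 1.65 in aerocyte capillary-like cells. Of 9 proliferation genes, 8 were higher, with Top2a at 54.3 CPM in LPS and 2.93 in PBS, a ratio of 18.5 (13.2 to 26.7), while the replication clamp Pcna stood at 0.797. The Top2a UMIs of the LPS library were unevenly spread: 139 of 306 came from 3 lymphatic-like cells and 98 from 27 general capillary-like cells. Neutrophil marker RNA was also highest in LPS endothelial-like cells (given above), and its part in these lists was not tested.

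With X-rays in both libraries, LPS+RT against PBS+RT, where 8.07% of all genes were higher and 6.63% lower, 3 of 15 tip cell genes were higher and none lower: Cxcr4 at 2.02, Rgcc at 1.93 and the netrin receptor Unc5b at 1.52. Notch genes gave 2 higher of 8, Hes1 at 1.60 with 304 CPM in LPS+RT and 190.3 in PBS+RT, and the ligand Jag2 at 1.57. Hypoxia genes gave 1 higher of 13, the glycolytic enzyme Pgk1 at 1.52. Of 4 angiopoietin and Tie partners 2 were lower, among them Tnip2, an inhibitor of NF-kB signalling that binds Tie2 complexes, at 0.543, and of 11 semaphorins and plexins 1 was lower, Plxna4 at 0.605, and 1 higher. Of 3 counted proliferation genes 2 were higher, with Top2a at 6.49 CPM in LPS+RT and 2.01 in PBS+RT, a ratio of 3.23 (2.18 to 4.85). Of the other lists, 1 gene each was higher among 5 angiogenesis inhibitors and 12 genes of VEGF signalling, and 1 each was lower among these 12 genes and the 5 genes of the wider VEGF family. In PBS+RT against PBS, with 11.3% of all genes higher and 14.8% lower, 3 of 8 Notch genes were lower (Nrarp at 0.461, Jag2 at 0.578 and Hes1 at 0.617), Cxcr4 was the 1 lower of 15 tip cell genes at 0.430, and Plxna2 was higher among 3 of 11 semaphorins and plexins, with 362 CPM in PBS+RT and 169.99 in PBS, a ratio of 2.13.

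In LPS+RT against LPS, which shares the LPS library with LPS against PBS, several of the same genes were called the other way, with 5.43% of all genes higher and 9.72% lower. Ankrd37 stood at 0.286, Col18a1 at 0.312, Thbs1 at 0.410, Hif1a at 0.525 and Col4a2 at 0.539. Hes1 stood at 1.59, Hey1 at 1.52 and Nr4a1 at 1.69. Of 9 proliferation genes 8 were lower, with Top2a at 6.49 CPM in LPS+RT and 54.3 in LPS, a ratio of 0.119.

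The genes whose levels followed each member most closely were found over 69 class and library sums of 19 classes, by Pearson's r of log2(CPM + 10). The sums share cells of the same libraries, and all genes of the endothelium share the contrast of endothelial with other cells, so the values are a description. Kdr was closest to Ecscr, Cldn5 and Tspan12 (r = 0.97 for each), and Tie1 to Ushbp1 (0.99), Podxl and Emcn (0.98 each). Flt1 was closest to Klhl5 (0.95), Cd36 and Adrb1 (0.93 each), Nrp1 to Bmpr2, Stard9 and Tmem47 (0.91 each), and Tek to Tm4sf1 and Sema3c (0.97 each) and Ephb4 (0.96). Apln was closest to Rprml (0.96), Ccdc184 and Chst1 (0.94 each), and Aplnr to Sox17, Sema3g and Grp (0.95 each). Esm1 was closest to Npr3 (0.90), Armcx4 and Hey1 (0.89 each), and Vegfa to Ndst1 (0.91), Agrn (0.80) and Pitpnm3 (0.79). Angpt2 was closest to Gm32067 (0.84), 9630014M24Rik and Smtn (0.82 each). Cldn5, Emcn, Sema3c, Sox17, Hey1, Chst1 and Rprml are themselves class markers.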

How the data were processed

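The 4 droplet libraries were read as deposited, in raw counts of UMIs by gene and barcode. Per the file headers, Cell Ranger 7.0.1 made them, on mm10 per the submitters' processing notes, which also name R 4.2.2 and Seurat 4.3.0. Whether intronic reads were counted is not given in the sources used here. Barcode names were not used here, so barcodes shared between libraries could not be counted. The members and lists were chosen with earlier results of these data known.

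Barcodes with at least 500 UMIs, 200 genes and no more than 10% mitochondrial UMIs were kept. A doublet score from simulated doublets gave no clear threshold, so the top-scoring 0.8% per 1000 barcodes were removed, or 4.79% to 7.70% of a library. Counts were log-normalised, and 2000 variable genes, 30 principal components, 15 neighbours and Leiden clustering at resolution 1.5 gave 41 clusters. The 106 members and listed genes were barred from clustering. A cluster was named with at least 3 markers at 2-fold or more in at least 10% of its cells, and 36 of 41 were. Names rebuilt in this way may differ from those of the study.

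UMI counts were summed per class and library. Levels carry exact Poisson 95% intervals, ratios exact conditional binomial ones and cell shares Clopper-Pearson ones. Where a library held no UMI, the limit is 3 counts. Classes under 50 cells were left out of class means. To compare shares across depths, each cell was thinned to 2000 UMIs and shallower cells were left out. The text names all 10 members in the classes described. From each list it takes the genes at 20 CPM or more with the largest ratio, up to 3 per comparison, and for likeness the 3 genes of highest Pearson's r with each member. Cell cuts at 5 UMIs were chosen after seeing the values. Alternatives covered weighting, scaling, filters, doublets, clustering, naming and the level limit. Calculations used Python 3.11.15 with numpy 2.4.6, scipy 1.17.1, pandas 2.3.3, scikit-learn 1.9.0, igraph 0.11.9 and leidenalg 0.10.2, and the ratio code was tested on simulated data.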

Additional observations from a re-analysis of the deposited data

Results flagged for a closer look

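In 8 cases a member stood on opposite sides of even in a pair of effects, with both intervals excluding even and at least 1 of the ratios past 1.5-fold. With 1 library per group these differences were not tested, and the comparisons with and without X-rays use different control libraries. The intervals treat UMIs as independent, although 28 endothelial-like cells in LPS+RT and 28 in PBS+RT held most of the Esm1 UMIs. The shares of cells with at least 5 Esm1 UMIs, given above, had overlapping intervals in these libraries. Angpt2 accounted for 3 cases. In aerocyte capillary-like cells its log2 ratio was 3.78 for LPS over PBS and -0.92 for LPS+RT over PBS+RT, a difference of 4.70, and the first rests on 5 cells that hold 50 of 70 UMIs. For LPS over PBS its log2 ratio was -0.87 in general capillary-like and 3.78 in aerocyte capillary-like cells, a difference of -4.65. For LPS+RT over LPS it was 0.73 in general capillary-like and -3.02 in aerocyte capillary-like cells, a difference of 3.74.

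The apelin pair and Esm1 gave the other 5, all between LPS over PBS and LPS+RT over PBS+RT. In endothelial-like cells the log2 ratios were -0.61 and 0.58 for Apln, a difference of -1.19, -1.42 and 0.37 for Aplnr, a difference of -1.79, and -2.36 and 0.26 for Esm1, a difference of -2.62. In general capillary-like cells they were -1.42 and 0.52 for Aplnr, a difference of -1.94, and -2.34 and 0.59 for Esm1, a difference of -2.92. The Apln case was met in pooled cells only. Within aerocyte capillary-like cells, which held most Apln UMIs, neither ratio was called.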

How the results depend on the processing

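Of 1349 ratios read under other settings, 1129 stayed within the interval first given, 220 moved outside it and 0 changed sign while called. The 1129 include 116 with no level limit and 116 with a 20 CPM limit. These settings change only which ratios are called, so their ratios could not move. Movement was uneven over the other settings. As a mean over endothelial-like subclasses 31 of 40 ratios moved outside the interval, and with called doublets kept 48 of 116 did. The count of members called in endothelial-like cells for LPS against PBS was 5. It was 3 as a mean over endothelial-like subclasses (Angpt2, Aplnr and Esm1) and 3 without the lymphatic-like cluster (Vegfa, Aplnr and Esm1), an alternative added after the data were seen. It was 4 without Apln at 1000 UMIs or more per cell, at resolution 3.0 and with members allowed in clustering, and 4 without Angpt2 with equal cell weights and with doublets kept. The Apln call was thus lost under 5 of the 13 alternatives. For LPS+RT against LPS the count of 3 became 2, without Angpt2, with equal cell weights and with doublets kept, and 2, without Aplnr, as a mean over subclasses. Aplnr and Esm1 were called lower in LPS under each of the 13 alternatives. The count of 0 for LPS+RT against PBS+RT became 1, Apln higher, with equal cell weights, median-of-ratios scaling, resolution 3.0, members allowed in clustering, without the 5 cells richest in the member and without the lymphatic-like cluster. It became 1, Angpt2 lower, with doublets kept, and 2, Aplnr higher and Angpt2 lower, as a mean over subclasses. The cause of these changes was not tested.

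Class means depend on how finely cells are clustered. Vegfa in AT1-like cells was 1683 CPM, against 1457.5 at resolution 1.0 and 1047 at resolution 3.0. Kdr in aerocyte capillary-like cells was 2281 CPM, against 1728 and 2242, and Nrp1 there 2252, against 1726 and 2210. Apln there was 273 CPM, against 202 at resolution 1.0. At resolution 3.0 Flt1 in general capillary-like cells was 1598 CPM and Tek 978 CPM. No paired analysis was possible because each group is 1 library. Depth limits Angpt2, Esm1 and low receptor levels outside their main class most, where a value rests on few UMIs.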
